A study of Arabidopsis thaliana with 9 samples.

Results

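Heat shock factors (HSFs) are transcription factors that switch on chaperone genes when proteins unfold, and chaperones are the proteins that keep other proteins folded, refold them or pull them out of aggregates. HSP70 proteins hold unfolded chains, HSP90 proteins finish the folding of signalling proteins, HSP60 proteins form folding chambers in organelles, HSP100 proteins take aggregates apart and small HSPs keep unfolded proteins soluble. In plants each compartment has its own set: cytosol, endoplasmic reticulum (ER), mitochondrion and chloroplast. The genes described here are the 60 protein-coding genes, of 27444 on chromosomes 1 to 5, whose symbol starts with HSP, HSF, HSC70, mtHsc70, cpHsc70, BIP and a number, or CLPB, or whose synonyms name a heat shock protein or heat shock transcription factor. By symbol 52 were found, and 8 more by synonym alone. They comprised 21 HSF, 15 HSP70, 7 HSP90, 6 HSP100, 3 HSP60 and 7 small HSP genes. The remaining gene, HSPRO2 (AT2G40000), met the rule by its symbol but is neither a factor nor a chaperone: its synonyms call it an ortholog of sugar beet HS1 PRO-1, a nematode resistance gene.

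The question of the study was where in the genome 2 growth-regulating factors, GRF3 and GRF1, are bound. Whole plants of Arabidopsis strain Ws, 2 weeks old and grown on MS medium, carried a 35S:GRF3-GFP, a 35S:GRF1-GFP or a 35S:GFP transgene, with 3 samples of each, and DNA was recovered with an anti-GFP antibody (chromatin immunoprecipitation sequencing, ChIP-seq). The viral 35S promoter drives strong expression in most tissues, so the tagged factors were made in cells that may not make them otherwise, and strong binding in few cells cannot be told apart from weak binding in many. The 6 GRF samples each came with a list of peaks, which are stretches of DNA recovered above a control, and the 35S:GFP samples were not analysed here.

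Each peak has a fold enrichment over the control, which is the authors' deposited value. Folds are given per list, and a mean over the libraries of 1 factor describes a region and carries no test. A gene is said to have a peak in a library where the peak's summit lay inside the gene span or within 1 kb of it. The GRF3 lists held 2258, 2301 and 5944 peaks in replicates 1, 2 and 3, and the GRF1 lists 1410, 1122 and 1878. GRF3 replicate 3 was thus by far the longest list, and GRF1 replicate 2 was the one with most of its summits, 82.8%, at or near a protein-coding gene, against 45.4% to 69.5% in the other 5. Absence from a list means that no peak was called there; no read counts were given, so the depth of each library is unknown.

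Peaks lay at 23 of the 60 genes in at least 1 library, at 20 in GRF3 libraries and at 6 in GRF1 libraries, with 3 genes in lists of both (38.3%, 33.3%, 10% and 5%). Of all protein-coding genes, 22.0% had a peak in at least 1 library, 18.5% in a GRF3 library, 6.33% in a GRF1 library and 2.8% in lists of both. In GRF3 replicates 1, 2 and 3, 10, 6 and 18 of the 60 genes had a peak (16.7%, 10% and 30.0%), where 7.38%, 5.67% and 14.5% of all protein-coding genes did. In GRF1 replicates 1, 2 and 3, 1, 6 and 1 of the 60 had a peak (1.67%, 10% and 1.67%), where 3.13%, 4.61% and 4.03% of all genes did. The share was thus above that of all genes in the 3 GRF3 libraries and in GRF1 replicate 2, and below it in GRF1 replicates 1 and 3. The GRF3 libraries averaged 11.3 ± 6.11 of these genes and the GRF1 libraries 2.67 ± 2.89 (SD, n = 3 each). The difference of 8.67 genes did not pass the test (exact permutation test over libraries, two-sided, p = 0.2, where 0.1 is the smallest this design allows), and the 6 genes of GRF3 replicate 2 equalled the 6 of GRF1 replicate 2. Without GRF3 replicate 3 the difference was 5.33 genes (exact permutation p = 0.3).

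**Figure D1:**
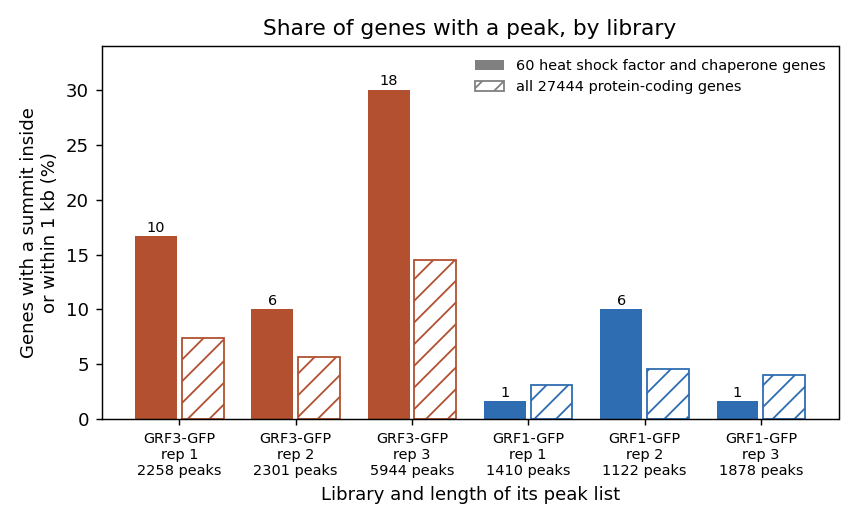
Percent of genes with a summit inside the span or within 1 kb (y axis) in each library (x axis, with the number of peaks in its list); filled bars are the 60 heat shock factor and chaperone genes, with their count on top, and hatched bars all 27444 protein-coding genes. The filled bar stands above the hatched one in the 3 GRF3 libraries and in GRF1 replicate 2, and below it in GRF1 replicates 1 and 3.

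Since the lists differ in length, the 60 genes were also expressed as a percentage of all genes with a peak in the same library. This share was 0.494%, 0.386% and 0.452% in GRF3 replicates 1, 2 and 3, against 0.116%, 0.475% and 0.0903% in the GRF1 replicates. GRF1 replicate 2 lay within the range of the GRF3 libraries, and the difference of the means, 0.216 percentage points, did not pass the test (exact permutation test, two-sided, p = 0.3). Without GRF1 replicate 2 the difference was 0.34 percentage points (exact permutation p = 0.1, the smallest possible with 3 libraries against 2).

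A region was called for a factor where overlapping peaks occurred in at least 2 of its 3 libraries, and such regions are named consensus regions here. GRF3 consensus regions lay at 10 of the 60 genes (16.7%), where 5.52% of all genes were called. GRF1 consensus regions lay at 1 of 60 (1.67%), where 3.12% of all genes were called. None of the 60 genes had consensus regions of both factors, where 0.907% of all genes did. The GRF3 count rested on replicate 3 for most of its genes: without that library 3 remained, Hsp70b, ERD2 and mtHsc70-1 (5%, where 3.39% of all genes were called), and without replicate 1 there were 6 (10%, where 3.93% were called). Those 3 were also the only genes left with peaks of at least 4-fold, lists of equal length or regions in all 3 libraries. Of all genes, 2.53%, 2.99% and 3.02% were then called. With summits inside the span only 6 were left, where 2.69% of all genes were called.

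The HSP70 class held most of the GRF3 regions. Of its 15 genes 6 were called for GRF3, where 5.52% of all genes were: Hsp70b, mtHsc70-1, ERD2, BIP3, HSP70 and HSC70-1. The summits called for BIP3 and HSP70 lay inside the neighbouring genes SRC2 and FYD. Among the 21 HSF genes 2 were called, HSF4 and AT-HSFA7B, and the HSP90 and HSP100 classes had 1 each, SHD of 7 genes and CLPB2 of 6. None of the 7 small HSP and none of the 3 HSP60 genes was called for either factor. The only gene called for GRF1 was HSF1, an HSF. These class counts are small and no difference between classes was tested. With 5.52% of all genes called for GRF3 and 3.12% for GRF1, classes of this size with no gene called cannot be told apart from all genes.

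**Figure D2:**
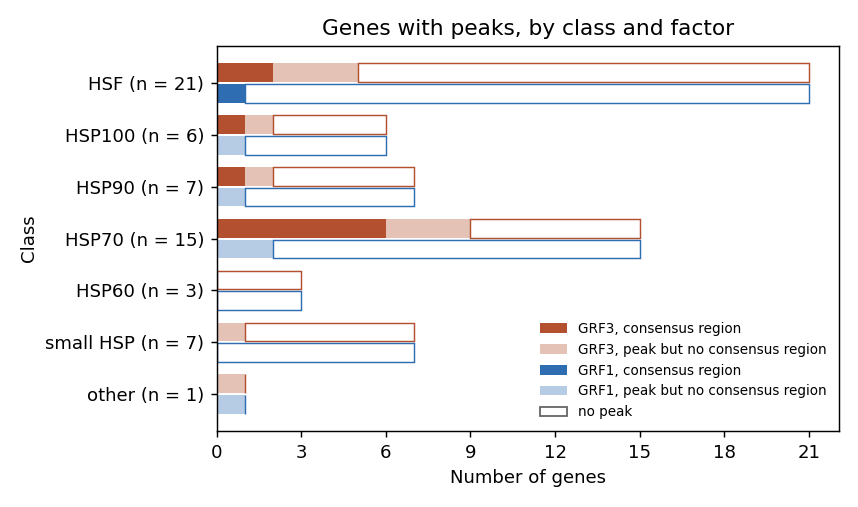
Number of genes (x axis) in each class of heat shock factor and chaperone genes (y axis), with GRF3 above and GRF1 below; full colour marks genes with a consensus region, pale colour genes with a peak but no consensus region, and white genes with no peak. The HSP70 class has 6 of 15 genes with a GRF3 region and 0 with a GRF1 region, where 5.52% and 3.12% of all genes were called.

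The GRF3 regions at these genes fell into a strong and a weak kind. There were 11 regions at the 10 genes, 4 in all 3 libraries and 7 in 2. The 4 found in every GRF3 library had mean folds between 7.25 and 9.53, and the 7 found in 2 had mean folds between 1.93 and 2.72, with no region in between. Over the whole genome, GRF3 regions in all 3 libraries had a median fold of 4.35 and those in 2 libraries 2.45. A mean fold of at least 6 was also common genome-wide in the first kind, with 449 of 960 regions, and rare in the second, with 26 of 1243. All 4 strong regions were at HSP70 class genes.

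Hsp70b (AT1G16030), a cytosolic HSP70 gene induced by heat, had a pair of strong regions, one near each end of its span. The first, on chromosome 1 from 5501991 to 5502465 (TAIR10), had folds of 8.35, 8.39 and 9.59 in GRF3 replicates 1, 2 and 3 (8.78 ± 0.707, SD, n = 3), and its summit lay 11.3% of the way from the left end of the span. The second, from 5503949 to 5504702, had folds of 7.53, 6.66 and 8.02 (7.4 ± 0.689, SD, n = 3), at 96.2% of the span. Both regions were in each GRF3 list and no GRF1 list had a peak at the gene. The summits of the 3 libraries lay within 10 bp of each other in the first region and within 9 bp in the second. Of all GRF3 regions, 11.7% and 16.9% had a higher mean fold. That total includes the mostly weak regions found in 2 libraries, and among the 960 in all 3 libraries 449 had a mean fold of at least 6.

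mtHsc70-1 (AT4G37910), which encodes a mitochondrial HSP70, carried the highest mean fold among the GRF3 regions of these genes. On chromosome 4, from 17824664 to 17825107, its folds were 9.06, 8.56 and 11.0 in GRF3 replicates 1, 2 and 3 (9.53 ± 1.27, SD, n = 3). The peak ranked 180 of 2258, 209 of 2301 and 170 of 5944 by fold in those lists. Its summits lay within 5 bp of each other at 4.3% of the span, close to the left end, and no GRF1 list had a peak there. The strand of the gene was not in the gene table used, so left and right are not stated as start and end.

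ERD2 (AT1G56410, also HSP70T-1), an HSP70 gene first described as induced by dehydration, had its strong region outside the span. On chromosome 1, from 21119364 to 21119771, its folds were 6.73, 7.59 and 7.44 in GRF3 replicates 1, 2 and 3 (7.25 ± 0.46, SD, n = 3). The summits differed by 2 bp between libraries and lay 287 bp to the right of ERD2, about midway between it and its neighbour AT1G56415. No GRF1 list had a peak there either.

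The weaker GRF3 regions at HSP70 class genes were each in replicates 1 and 3. HSC70-1 (AT5G02500), a constitutive cytosolic HSP70 gene, had a region inside its span, on chromosome 5 from 555310 to 555695, with folds of 2.4 and 2.57, and replicate 1 held a further peak there with a fold of 1.96. BIP3 (AT1G09080), a gene for an ER-resident HSP70 induced by ER stress, had a region 874 bp to the left, with folds of 2.06 and 2.73, and replicate 3 held a further peak inside the gene with a fold of 2.19. HSP70 (AT3G12580), a cytosolic HSP70 gene induced by heat, had one 401 bp to the left, with folds of 1.92 and 1.94. The summits near BIP3 and HSP70 lay inside the neighbouring genes SRC2, named after a cold-regulated soybean gene, and FYD. GRF1 replicate 2 also had a peak overlapping the region near BIP3, with a fold of 1.94.

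Outside the HSP70 class the called GRF3 regions were all weak. HSF4 (AT4G36990, also HSFB1), a class B factor of the kind that restrains heat shock genes, had a region inside its span with folds of 2.89 and 2.03 in replicates 2 and 3. AT-HSFA7B (AT3G63350), a class A factor gene induced by heat, had one with folds of 2.23 and 2.3 in replicates 1 and 3. CLPB2 (AT4G14670), of the HSP100 class, had one inside its span with folds of 2.7 and 2.74 in replicates 2 and 3. The region called for SHD (AT4G24190, also HSP90.7), the ER-resident HSP90, had folds of 1.69 and 2.91 in replicates 2 and 3 and lay 799 bp to the left of SHD, inside the neighbour TLP1, a thaumatin-like gene. In 3 of the 4 GRF3-called genes whose summit was outside the span, then, the summit was inside another protein-coding gene. With each region given to its nearest gene only, an alternative chosen after seeing the data, 7 of the 60 genes were called for GRF3, where 4.12% of all genes were.

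The spacing of the summits was narrow in the strong regions and varied widely in the weak ones, and no difference was tested. In the 4 strong regions the summits of the 3 GRF3 libraries spanned 2 to 10 bp, and over all GRF3 regions in 3 libraries the median span was 16 bp. In the 7 weak regions, with 2 libraries each, they spanned 4 to 260 bp, where the genome-wide median for regions in 2 libraries was 43 bp. The span was 4 bp at HSP70 and 9 bp at AT-HSFA7B, within the range of the strong regions, and 57 bp at HSC70-1. At BIP3, SHD, HSF4 and CLPB2 it was 121, 169, 197 and 260 bp. At these 4 genes the libraries' peaks overlapped while their maxima lay well apart.

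**Figure D3:**
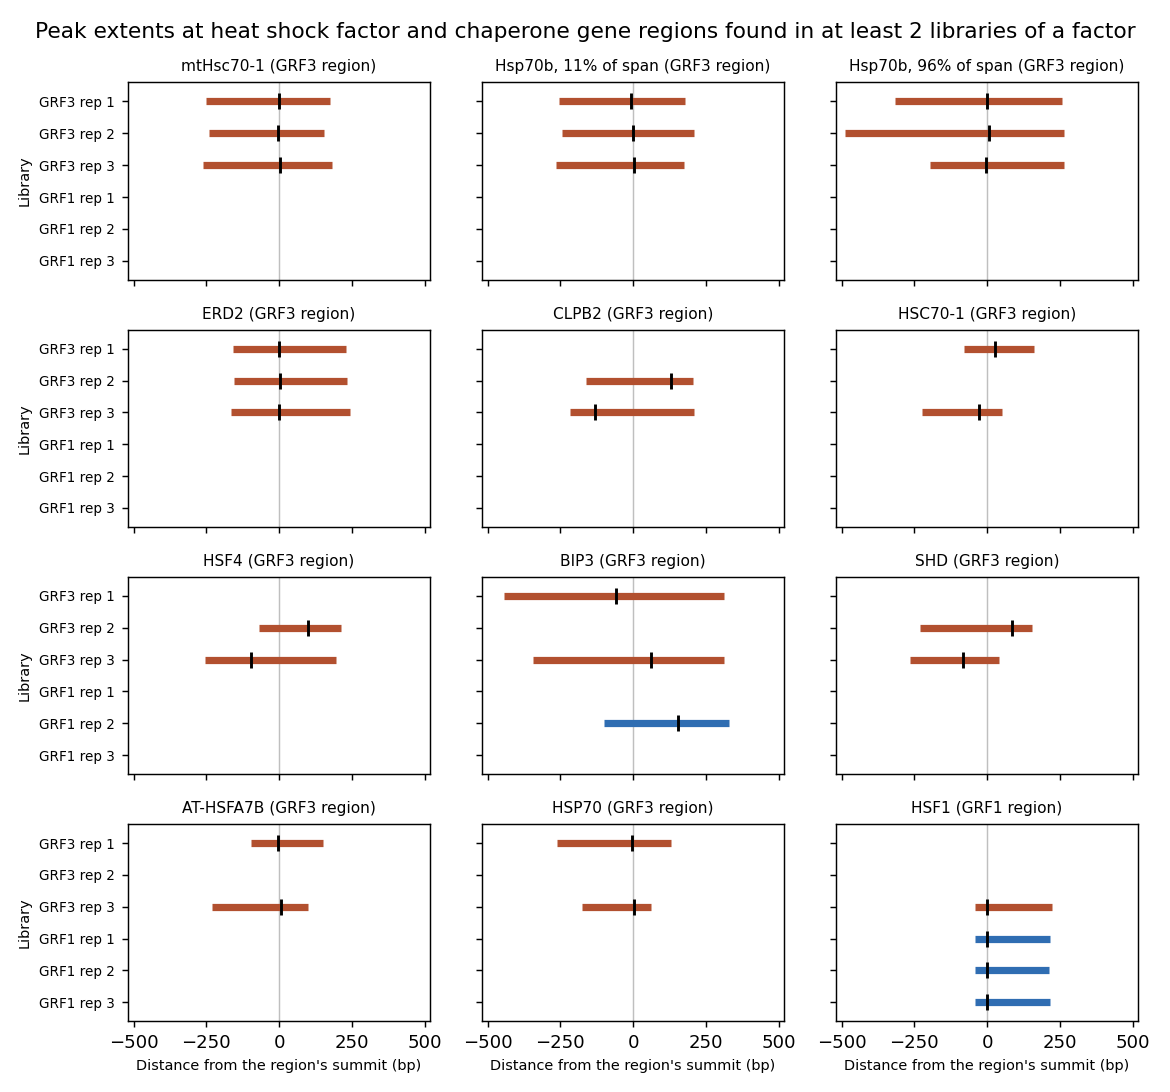
Extent of each peak (bars, GRF3 libraries in brown, GRF1 libraries in blue) and its summit (black mark) relative to the summit of the consensus region (x axis, bp), by library (rows), for the 11 GRF3 regions and the GRF1 region at heat shock factor and chaperone genes. Summits line up within 10 bp in the regions of mtHsc70-1, Hsp70b and ERD2, within 1 bp at HSF1, and lie 260 bp apart at CLPB2.

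HSF1 (AT4G17750, also HSFA1A), of the class A1 factors that start the heat shock response, was the one gene with a GRF1 region. Of the GRF3 lists, replicate 3 had a peak at its place, on chromosome 4 from 9870033 to 9870300 and inside the span, with a fold of 35.5 that ranked 5 of 5944, while GRF3 replicates 1 and 2 had none. The GRF1 region, from 9870033 to 9870292, had folds of 7.8, 9.51 and 9.37 in GRF1 replicates 1, 2 and 3 (8.89 ± 0.953, SD, n = 3), and 17.4% of all GRF1 regions had a higher mean fold. That total includes the regions found in 2 libraries, and among the 588 in all 3 libraries 209 had a mean fold of at least 6. The summits of the GRF3 replicate 3 peak and the 3 GRF1 peaks lay within 1 bp of each other. They were 41 to 42 bp from the left edge of peaks 257 to 268 bp wide. None of the other genes had as high a fold in GRF3 replicate 3, and none of them had a peak in GRF1 replicates 1 and 3.

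A further HSF gene had a strong peak in GRF3 replicate 3 alone. HSFA3 (AT5G03720), whose product acts downstream of the drought and heat regulator DREB2A, had a peak on chromosome 5 from 971392 to 971635 with a fold of 19.4, ranked 31 of 5944. The summit also lay inside the overlapping gene AT5G03710. The peak at HSFA3 in GRF3 replicate 1, with a fold of 2.28, was elsewhere in the gene, and GRF3 replicate 2 and the GRF1 lists had none. Among the 50 peaks of GRF3 replicate 3 with the highest folds, 9 had no overlapping peak in GRF3 replicates 1 and 2, and 4 of those 9 overlapped a GRF1 peak.

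**Figure D4:**
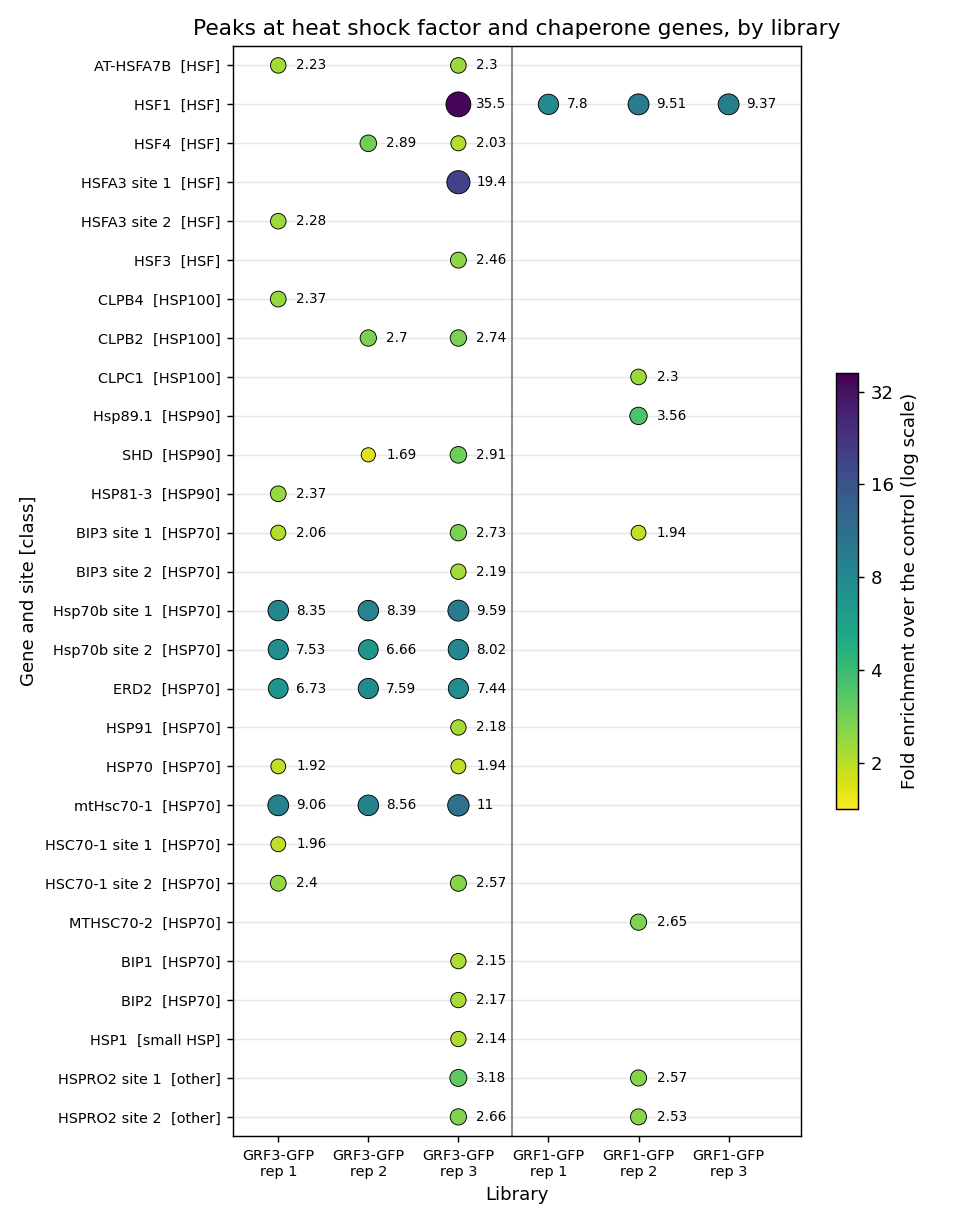
Fold enrichment (number, colour and size of the points, log colour scale) of the peaks at heat shock factor and chaperone genes. Rows are genes and sites, with the class in brackets, and columns are libraries, GRF3 left of GRF1. An empty place means that the list had no peak there with its summit inside the span or within 1 kb. Hsp70b, ERD2 and mtHsc70-1 have points in all 3 GRF3 libraries and none in GRF1 libraries, and HSF1 has points in all 3 GRF1 libraries and in GRF3 replicate 3.

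The other 12 genes with peaks had no consensus region, and their folds, apart from the 19.4 at HSFA3, were between 2.14 and 3.56. In GRF3 replicate 3 alone these were HSF3 (AT5G16820, also HSFA1B; fold 2.46), HSP91 (AT1G79930, also Hsp70-14; 2.18), the small HSP gene HSP1 (AT4G14830; 2.14, with the summit inside its neighbour AT4G14840) and the ER HSP70 genes BIP1 (2.15) and BIP2 (2.17). BIP1 and BIP2 are close copies of each other, and their peaks lay at 42.5% and 43.5% of their spans. The labels do not say how reads that match both were placed, so their peaks are uncertain. In GRF3 replicate 1 alone, CLPB4 (AT2G25140, a mitochondrial HSP100) and HSP81-3 (AT5G56010, a cytosolic HSP90) each had a fold of 2.37. The CLPB4 summit lay 991 bp away, inside the neighbour AT2G25130. Replicate 3 had an overlapping peak there with a fold of 2.53, but its summit lay 1026 bp away, beyond the 1 kb limit.

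In GRF1 replicate 2 alone there were peaks at Hsp89.1, MTHSC70-2 and CLPC1. Hsp89.1 (AT3G07770, a mitochondrial HSP90) had a fold of 3.56, with the summit 188 bp to the right of the span, inside the neighbour OBE1. MTHSC70-2 (AT5G09590, a mitochondrial HSP70) had 2.65, with the summit 301 bp to the left of the span, inside the snRNA gene U2.5. CLPC1 (AT5G50920, a chloroplast HSP100) had 2.3. Each had a fold below the median of that list, 4.52. HSPRO2 had a pair of peaks in GRF3 replicate 3, with folds of 3.18 and 2.66, and a pair in GRF1 replicate 2, with folds of 2.57 and 2.53. The summits of both libraries lay 25 bp apart at the first place and 7 bp apart at the second.

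**Figure D5:**
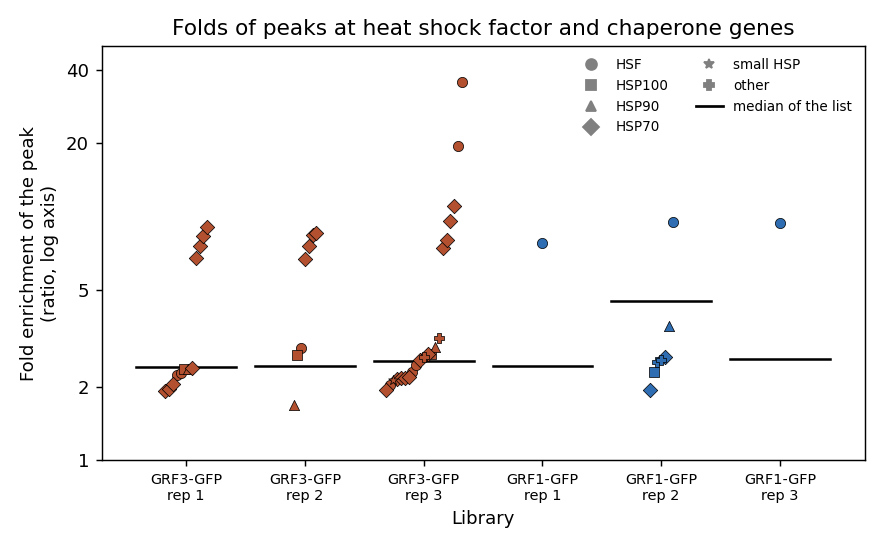
Fold enrichment (y axis, log) of every peak inside or within 1 kb of a heat shock factor or chaperone gene, by library (x axis); symbols give the class and the black line is the median fold of all peaks in that list. In the GRF3 libraries the HSP70 class peaks at Hsp70b, ERD2 and mtHsc70-1 lie between 6.66 and 11.0, apart from most other points, which lie near or under the median line.

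Most protein-coding genes had no peak, since 22.0% had one in at least 1 library. Having none is thus not particular to the genes named next. No library had a peak at the other 37 of the 60 genes. They included 16 of the 21 HSF genes, among them HSFA2 and HSFA1D, which drive the heat response, and HSFB4, which is needed for root stem cell divisions. They also included HSP101, the main cytosolic disaggregase, HSP90.1, a heat-induced cytosolic HSP90 gene, both chloroplast HSP70 genes, cpHsc70-1 and cpHsc70-2, all 3 HSP60 genes, and 6 of the 7 small HSP genes, such as HSP21 of the chloroplast and HSP17.4 and HSP18.2 of the cytosol.

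Some peaks lay just beyond the 1 kb limit. The consensus regions nearest to it on the inside were those of GRF3 874 bp from BIP3 and 799 bp from SHD. The nearest on the outside was a GRF3 region of replicates 1 and 3 near CLPB4, on chromosome 2 from 10696534 to 10696915, with folds of 2.37 and 2.53. The replicate 1 summit of that region lay 991 bp from CLPB4, inside the limit, the replicate 3 summit 1026 bp, outside it, and the summit of the region 1009 bp. HSFA1E had a GRF3 region in 2 libraries 1179 bp away, inside the neighbour AT3G03000. HSF3 had a GRF1 region in 3 libraries 1808 bp away, inside the neighbour SYP21. Its folds were 6.54, 6.64 and 10 in replicates 1, 2 and 3. HSP18.2 had peaks in GRF3 replicate 3 and GRF1 replicate 2, 1038 bp and 1100 bp away, with folds of 2.52 and 2.09. Both summits lay inside the neighbour EXO70H7. With 3 kb allowed, 13 of the 60 genes were called for GRF3, where 9.3% of all genes were, and 2 of 60 for GRF1, where 5.3% of all genes were.

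Partners of these chaperones were read from a further list of 64 matched genes: cochaperones, J-domain proteins, chaperonins, nucleotide exchange factors, heat response genes and genes of the unfolded protein response, by which the ER answers misfolded protein. Of these, 2 were called for GRF3 (3.12%, beside the 5.52% of all genes) and 5 for GRF1 (7.81%, beside 3.12%). None of 15 heat response genes, 11 J-domain protein genes, 4 chaperonin genes and 3 nucleotide exchange factor genes was called for either factor. The J-domain, chaperonin and exchange factor lists held 22, 18 and 6 symbols, and the rest of them were not examined. Among 20 cochaperone genes, Fes1C (AT5G02150), of a family of HSP70 exchange factors, had a GRF3 region inside its span with folds of 5.8, 5.11 and 6.76 and a second 469 bp away with folds of 2.32 and 2.7 in replicates 1 and 3. BAG2 (AT5G62100), of a family that binds HSP70, had a peak in GRF3 replicate 3 with a fold of 6.53, and a GRF1 region 912 bp away with folds of 3.71 and 4.09 in replicates 1 and 2.

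Of 11 unfolded protein response genes, 1 was called for GRF3 (9.09%, beside 5.52% of all genes) and 4 for GRF1 (36.4%, beside 3.12%). These counts are small and were not tested, and the list was chosen with earlier results of these data known. CRT3 (AT1G08450), a calreticulin that folds receptors in the ER, had a peak in GRF3 replicate 3 with a fold of 2.96, and a GRF1 region inside its span with folds of 6.14, 5.29 and 9.27 (6.9 ± 2.1, SD, n = 3). PDIL1-2 (AT1G77510), a protein disulfide isomerase, had one 294 bp away with folds of 3.14, 5.83 and 4.06 (4.35 ± 1.37, SD, n = 3). CRT1b (AT1G09210), another calreticulin, had one 753 bp away, inside AT1G09200, with folds of 2.78 and 2.38 in GRF1 replicates 2 and 3. BZIP28 (AT3G10800), an ER stress sensor that becomes a transcription factor, was called for both: on chromosome 3, from 3382367 to 3382621, the GRF3 folds were 19.0, 10.2 and 16.1 (15.1 ± 4.47, SD, n = 3), and at the same place the GRF1 folds were 16.0, 17.4 and 21.7 (18.4 ± 2.99, SD, n = 3). The summit lay 791 bp from BZIP28 for GRF3 and 797 bp for GRF1, inside AT3G10810. Thus 3 of the 4 GRF1-called genes of this list had their summit outside the span, and no difference between factors was tested for it.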

How the data were processed

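ChIP-seq peak lists of 6 libraries were used, 1 list per library. The submitters' processing notes name FastQC, Trimmomatic, Bowtie2, MACS2 and the genome build TAIR10; versions, settings and the peak caller's control are not given in the sources used here. Per the narrowPeak layout, the deposited files give each peak's start, end and summit, a score, a fold enrichment (ratio), and p- and q-values on a −log10 scale, all the authors' own values.

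Genes, symbols and spans were taken from RefSeq (assembly TAIR10.1, as a table), with no strand, product, exon or UTR column, so the product part of the gene rule was not applied. Its spans were set against the TAIR10 positions of the peaks, whose offset was not tested here; printed coordinates are those of the peaks, counted from 1. Whether a summit was exonic was not assigned, and the promoter motifs planned for search were not searched.

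Overlapping peaks (at least 1 bp) in at least 2 of 3 libraries formed a consensus region, whose summit was the median of each library's most significant peak. Region calling and assignment to a gene span were tested on simulated peaks placed at the middle of genes. The 1 kb limit and summits outside spans were not tested in this way. Libraries were compared with exact permutation tests (Python 3.11.15, numpy 2.4.6, pandas 2.3.3). Nothing in the labels says that replicates were separate cultures, so p-values measure only the spread between these libraries. Replicates sharing a number were not treated as pairs.

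Genes with a consensus region and those with a peak in 1 library were named, as were pathway genes with a region. The genes, classes and lists were chosen with earlier results of these data known. Names for genes with no peak, and the summits, ranks and top 50 peaks described, were chosen after their values were seen. From the list of 94 partner symbols, 64 genes were used, and 3 matches with another function in the gene table were left out. Alternatives were peaks with a −log10 q no lower than 5 or a fold no lower than 4, lists cut to the shortest (1122 peaks), other distances, any base of the peak, symbols only, regions in all 3 libraries, 50% reciprocal overlap, a replicate block, leaving out each library and, added later, the nearest gene only.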

Additional observations from a re-analysis of the deposited data

How the results depend on the processing

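Depth is unknown for every library, so a gene without a peak may lie below what its library could call. The number of these genes with a GRF3 consensus region, 10, fell to 3 with a −log10 q of at least 5 (3.29% of all genes being called), with a fold of at least 4 (2.53%), with lists of equal length (2.99%) and with regions in all 3 libraries (3.02%); each time these were Hsp70b, ERD2 and mtHsc70-1. With summits inside the span only it was 6 (2.69% of all genes). Leaving out 1 library gave 3 to 10 genes for GRF3, the lowest without GRF3 replicate 3, where 3.39% to 5.52% of all genes were called. The other settings gave 7 to 13, where 4.12% (nearest gene only) to 9.3% (3 kb) of all genes were. With symbols only, the count of 7 was out of 52 genes. The GRF1 count was 1 in all settings but that of 3 kb, where it was 2. Of all genes, 1.07% (inside the span only) to 5.3% (3 kb) were called for GRF1. The number called for both factors was 0 in all 17, where 0.39% (inside the span only) to 1.77% (3 kb) of all genes were. With 0 in the main setting, those that only remove peaks, libraries or genes could hardly raise it, so this constancy shows little. The fall of the GRF3 count under stricter settings is in part by construction, since fewer peaks are then used.

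The difference in genes with a peak per library was above 0 in all 16 alternatives, from 1.33 with lists of equal length to 11.3 without GRF3 replicate 2, and 5.33 to 11.3 on leaving out a library (exact permutation p from 0.1 to 0.6). The difference in share ran from 0.118 to 0.34 percentage points, and from 0.148 to 0.34 on leaving out a library (exact permutation p from 0.1 to 0.5). With 3 libraries a factor no setting could give a p below 0.1. With the replicate number as a block the differences stayed 8.67 genes and 0.216 percentage points (exact permutation within blocks, p = 0.5 for both, 0.25 being the smallest possible). The correlation of deviations between libraries of the same number was -0.0378, 0.00889 and -0.0439 over 6039 genes. No sign of pairing by number was thus seen, but peak lists cannot show whether libraries of the same number were prepared together.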
